A study of Mus musculus with 6 samples.

Results

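The clustered histone genes were examined in RNA sequencing of mouse testis. They were chosen by name and biotype alone: every protein-coding entry of the deposited table whose symbol begins with Hist1h, Hist2h, Hist3h or Hist4h, which gave 67 genes of 55711 entries, 22046 of them protein-coding. Among these, 3 genes are testis forms (Hist1h1t, Hist1h2ba and Hist1h2aa), and they were set against the other 64. The 6 libraries came from testis of C57BL6 mice, 3 from Tmc7 heterozygotes, which served as controls, and 3 labelled Tmc7 knockout. The series title ties TMC7, a transmembrane channel-like protein, to how elongated spermatids keep their volume and to vesicles that carry SYPL1 and arise at the trans-Golgi network. The labels used here give no age, no allele, no treatment and no statement on whether each library is a different animal. The p-values therefore reflect the spread among these libraries alone, and part of it may be technical.

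Values were deposited as FPKM, that is fragments per kilobase of a gene, scaled to the size of the library. Whole reads could be worked back from them, between 17059486 and 19343479 per library, with 29316 to 30657 genes above 0. The library size implied by the FPKM was not this read total. It was 16450310 against 17059486 reads in control 1 and 19497384 against 18140921 in labelled knockout 3. How it was set is not stated in the sources used here. The transcript of the targeted gene, Tmc7, stood at 38.0 ± 0.981 FPKM across controls and 40.3 ± 4.57 FPKM in the knockout-labelled libraries (SD, n = 3 each), so it was not lower in them and every direction below rests on the labels. Markers of testis cells were present: germ cell genes such as Ldhc (1913 ± 172.9 FPKM in controls) and the Sertoli cell gene Clu (230.3 ± 3.50 FPKM in controls).

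Histones are the proteins around which DNA is wound: H2A, H2B, H3 and H4 form the core of the nucleosome, and H1 binds the linker DNA between cores. Most clustered histone genes are transcribed when DNA is replicated, lack introns, and give mRNAs that end in a short hairpin in place of a poly(A) tail. In the testis, germ cells also make testis forms of histones around meiosis, and in elongating spermatids most histones are removed in favour of transition proteins and then protamines.

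Of the 67 genes, 54 lie on chromosome 13 (the Hist1 cluster), 10 on chromosome 3, 2 on chromosome 11 and 1 on chromosome 6. They comprise 6 H1, 18 H2A, 18 H2B, 12 H3 and 13 H4 genes. Reads were found in at least 1 library for 59 of them and in all 6 libraries for 25. Few genes held most of the signal: of 10630 histone reads over the 6 libraries, 62.6% fell on the top 3 genes and 89.9% on the top 10. In contrast, 34 genes had fewer than 10 reads over all libraries, and 8 of those had none. For the 8 at 0, 3 reads over all 6 libraries would have been 0.0150 to 0.0716 FPKM, depending on gene length, a limit that covers counting error only.

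A gene was tested if its mean over the 6 libraries was at least 0.5 FPKM, which 19 of the 67 reached, and 48 did not. The lowest tested mean was 0.634 FPKM (Hist2h2ab) and the highest untested mean was 0.393 FPKM (Hist3h2ba). The tested genes were 3 H1, 5 H2A, 5 H2B, 2 H3 and 4 H4 genes, and they held 96.3% of the histone reads. By class, H2B genes took 60.2% of the reads, H4 genes 15.4%, H1 genes 10.8%, H2A genes 7.52% and H3 genes 6.07%.

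None of the 19 tested histone genes differed between the groups after adjustment over all genes (limma on log2(FPKM + 1), Benjamini-Hochberg adjusted p of 0.868 or more). That is the background as well: 0% of the 19168 genes tested passed an adjusted p of 0.05. At an unadjusted p under 0.05 stood 1 of the 19 histone genes, 5.26%, against 3.87% of all genes. The 3 libraries labelled knockout all lay above the 3 controls for 2 of the 19 (10.5%), Hist1h2ba and Hist1h2aa, against 4.15% of all genes, and all lay below them for 0 of the 19, against 4.41%. With limma-voom on the recovered reads, 0 of the 15 histone genes with enough reads passed (smallest adjusted p = 0.858).

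The summed level of all 67 genes was 114, 104 and 97.6 FPKM across controls and 102, 97.7 and 110 FPKM in the knockout-labelled libraries. The groups overlapped, at 105.2 ± 8.31 and 103.5 ± 6.44 FPKM (SD, n = 3 each). Over the 19 tested genes the median difference was 0.02 on the log2(FPKM + 1) scale, with 10 values higher and 9 lower in the knockout-labelled libraries, beside a median of −0.01 over all genes tested. Single values ran from −0.41 for Hist2h2ac to 0.53 for Hist1h4h, and the median standard error was 0.20, beside 0.14 over all genes tested.

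**Figure D1:**
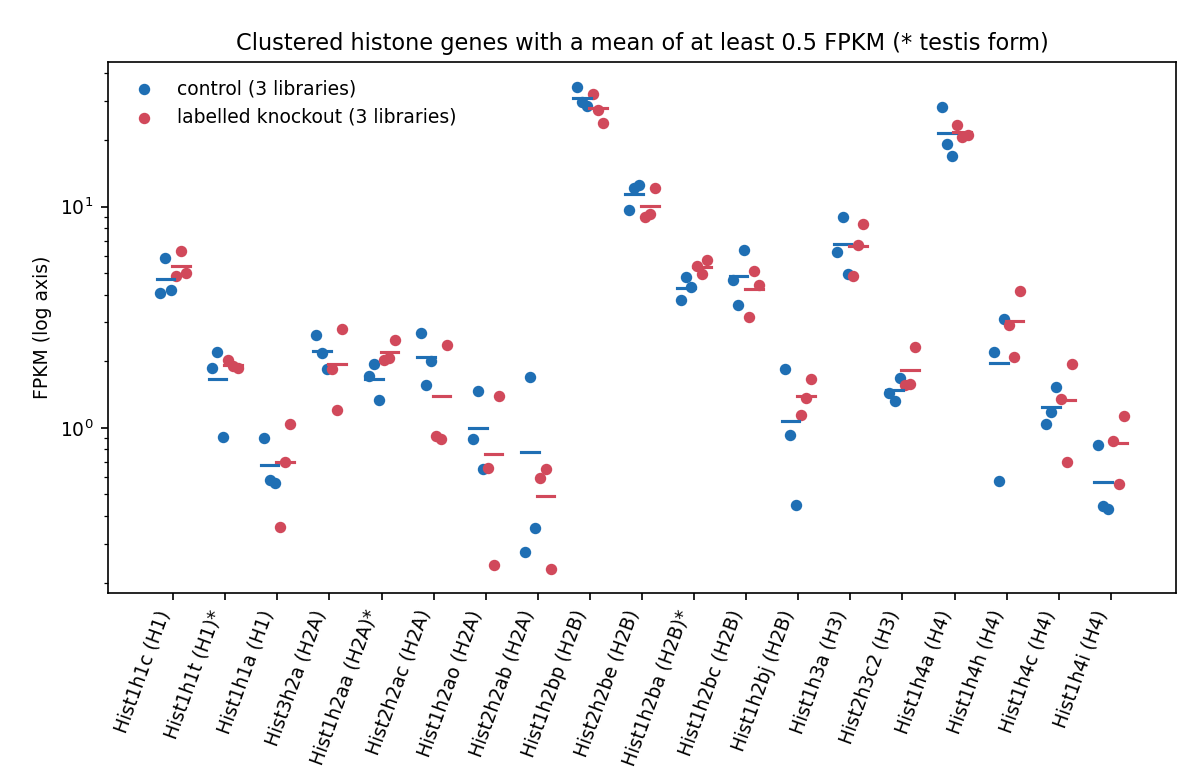
Each point is 1 library's FPKM (log axis) for 1 of the 19 tested histone genes, ordered by class and level, with controls in blue, libraries labelled knockout in red and short lines at the group means. Hist1h2bp and Hist1h4a stand highest, near 29.4 and 21.6 FPKM over the 6 libraries, and the red points lie wholly above the blue ones in Hist1h2ba and Hist1h2aa.

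Hist1h2ba encodes the testis H2B, known as TH2B, and lies at chr13:23933773-23934156 on the minus strand (GRCm38). It measured 3.799, 4.78 and 4.34 FPKM across controls and 5.37, 4.96 and 5.74 FPKM in the knockout-labelled libraries. Every library labelled knockout was above every control, though the nearest pair, control 2 and labelled knockout 2, rested on 34 and 33 reads. The difference was 0.26 on the log2(FPKM + 1) scale (SE 0.11, 95% interval 0.004 to 0.52), a ratio of 1.24 between the group means, with an unadjusted limma p of 0.0473 and an adjusted p of 0.868. That unadjusted p is not stable: limma-voom on the reads gave 0.273 before adjustment (95% interval −0.28 to 0.91), and no histone gene was under 0.05 before adjustment without the variance trend, with library weights, without control 3 or without labelled knockout 1. Counting error alone was wide at this depth: the exact Poisson 95% interval of control 2 was 3.31 to 6.68 FPKM and that of labelled knockout 2 was 3.41 to 6.96 FPKM.

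Hist1h2aa encodes the testis H2A, known as TH2A, and sits beside Hist1h2ba on the opposite strand, at chr13:23934462-23934851. Its values were 1.71, 1.94 and 1.33 FPKM across controls and 2.03, 2.07 and 2.499 FPKM in the knockout-labelled libraries. These groups did not overlap either, on 10 to 14 reads a library in controls and 14 to 19 in the others. The difference was 0.27 on the log2(FPKM + 1) scale (SE 0.13, 95% interval −0.04 to 0.58), a ratio of 1.32, with an unadjusted limma p of 0.0773 and an adjusted p of 0.868. Hist1h2ba was the higher of the pair in every library, by 2.22 to 3.25 times in controls and 2.30 to 2.64 times in the knockout-labelled libraries.

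Hist1h1t encodes the testis linker histone H1t, a product of pachytene spermatocytes, at chr13:23695814-23696725 on the plus strand. It stood at 1.87, 2.19 and 0.913 FPKM across controls and 2.03, 1.90 and 1.86 FPKM in the knockout-labelled libraries. The groups overlapped, and control 3 was lower than the other 5 libraries. The difference was 0.17 on the log2(FPKM + 1) scale (SE 0.20, limma, adjusted p = 0.873), and without control 3 it was −0.05, so its direction rests on that library.

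The 3 testis forms together reached 7.38, 8.91 and 6.58 FPKM across controls and 9.43, 8.92 and 10.1 FPKM in the knockout-labelled libraries. Those sums barely separated, since control 2 and labelled knockout 2 differed by less than the SD of either group (1.18 and 0.589 FPKM). As a share of all clustered histone FPKM, the testis forms made up 6.47%, 8.57% and 6.75% in controls and 9.21%, 9.13% and 9.14% in the knockout-labelled libraries. The means were 7.26% ± 1.14 and 9.16% ± 0.0427 (SD, n = 3 each), with no overlap. This share has no test here, because the 3 genes were set apart with earlier results of these data known. The near equality of the last 3 shares did not carry over to other denominators: without the most abundant pair, Hist1h2bp and Hist1h4a, the shares were 14.5%, 16.2% and 12.6% in controls and 20.1%, 18.0% and 15.4% in the knockout-labelled libraries, and the groups overlapped. Without Hist1h2bp alone they overlapped too, with control 2 at 12.0% and labelled knockout 3 at 11.7%. By reads, and among genes with under 50% shared sequence (given below), the groups did not overlap. Within H2A and H2B genes only, Hist1h2aa and Hist1h2ba held 8.47%, 10.9% and 9.29% against 12.6%, 12.8% and 13.5%, without overlap. Those are the 2 genes already seen not to overlap, with Hist1h1t left out, so this restates their values. The other 64 genes summed to 97.6 ± 8.14 FPKM across controls and 94.0 ± 5.85 FPKM in the knockout-labelled libraries.

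**Figure D2:**
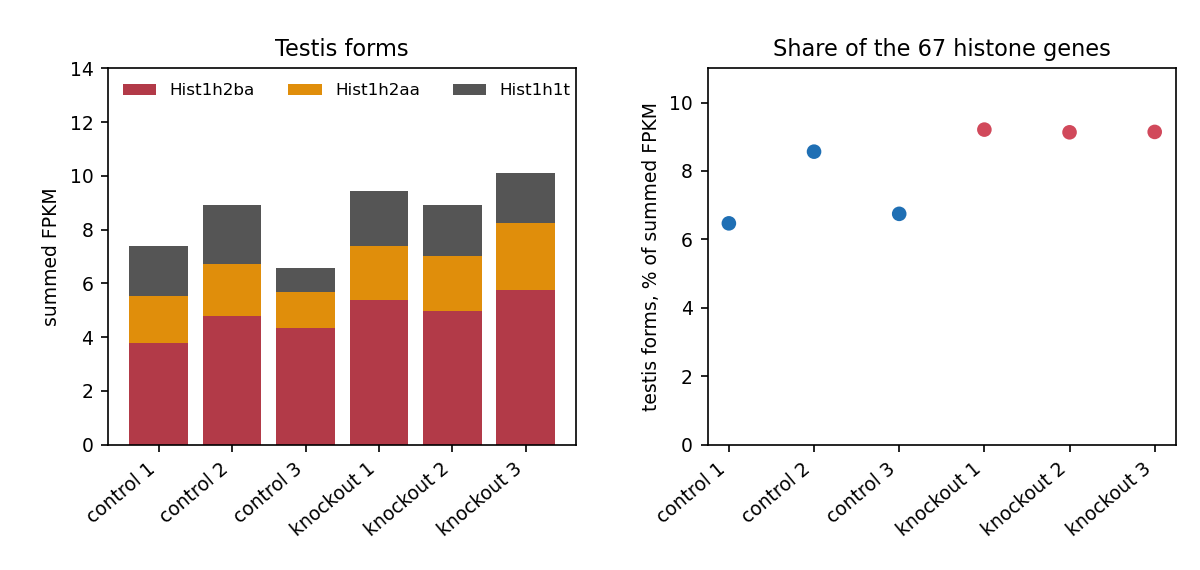
Left, stacked bars give the FPKM of Hist1h2ba, Hist1h2aa and Hist1h1t in each library, in which knockout stands for the library labelled so. Right, each point is the share of the summed FPKM of all 67 histone genes held by these 3 genes, 6.47% to 8.57% in controls (blue) and 9.13% to 9.21% in the knockout-labelled libraries (red).

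Hist1h2ba and Hist1h2aa are transcribed away from each other, with 305 bases between their gene models. Their RefSeq promoter windows, 300 bases each around the start (GRCm38.p6), share 220 bases, at chr13:23934187-23934406. These are printed because the 2 genes whose libraries did not overlap have this stretch in common. It is read on the minus strand, 5′ to 3′ towards Hist1h2ba, with capitals at the motifs named next:
Hist1h2ba and Hist1h2aa: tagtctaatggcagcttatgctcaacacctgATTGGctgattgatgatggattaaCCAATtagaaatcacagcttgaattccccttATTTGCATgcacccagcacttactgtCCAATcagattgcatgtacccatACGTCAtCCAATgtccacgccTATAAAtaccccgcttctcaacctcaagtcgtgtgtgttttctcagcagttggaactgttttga
On either strand it holds CCAAT 4 times (ATTGG where it lies on the other strand), the octamer ATTTGCAT once, TGACGT once (as ACGTCA) and TATAAA once. A match is a description of the letters and does not show that a factor binds.

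The same motifs were counted in the promoter windows of 61 of the 67 histone genes (62 windows) and in all 32851 windows of the RefSeq table, on both strands. CCAAT, the box read by NF-Y, was in 85.5% of histone windows and 37.4% of all windows. It was in 100% of H1, H2A, H2B and H3 windows and in 25% of H4 windows. TATAAA was in 56.5% against 13.6%. The octamer ATTTGCAT, the site of Oct factors, was in 22.6% against 1.74%, and among histone windows it lay only in H2A and H2B genes, 41.2% of each class. TGACGT, the core of a cyclic AMP response element, was in 25.8% against 7.51%, and its palindrome TGACGTCA, which contains it, in 6.45% against 1.79%. Windows of neighbouring H2A and H2B genes can overlap, so a site can be counted in both classes and the windows are not independent. Besides the testis pair, overlapping windows both held the octamer in Hist1h2ae with Hist1h2bg and in Hist1h2ah with Hist1h2bk. Both held TGACGT in Hist1h2ad with Hist1h2bf, among others. GGGCGG, the GC box, was about as frequent as elsewhere, in 38.7% against 35.7%, and the E2F word TTTGGCGC was in 0% of histone windows and 0.514% of all. The window of Hist1h1t held 1 CCAAT and 1 GGGCGG and none of the other words, so it differed from the shared stretch of its 2 testis companions.

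Coding sequence was compared within each class, with the longest coding sequence of each gene and with gaps counted as differences. Aligned over coding bases, Hist1h1t was 60.3% to 62.3% identical to the other H1 genes, whose identity among themselves was 68.3% to 83.9% (median 75.0%). Hist1h2aa was 75.3% to 84.6% identical to the other H2A genes (median 83.7%), which were 77.6% to 100% identical among themselves (median 96.1%). Hist1h2ba was 80.5% to 88.8% identical to the other H2B genes (median 87.2%), against 79.6% to 100% among themselves (median 92.1%). The 80.5% was against a 417-base coding sequence of Hist1h2bp, and Hist1h2bq and Hist1h2br entered with 405 bases, beside 384 in Hist1h2ba. Their shorter 381-base coding sequences were not used, so gaps lower these values. The range of Hist1h1t lay below that of the other H1 pairs, while the ranges of Hist1h2aa and Hist1h2ba overlapped those of the other H2A and H2B pairs.

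Among the 6 clustered linker histone genes, Hist1h1c, which encodes the somatic subtype H1.2, had the highest mean. It measured 4.05, 5.85 and 4.204 FPKM across controls and 4.85, 6.32 and 4.997 FPKM in the knockout-labelled libraries, with overlapping groups (difference 0.17, SE 0.15). Hist1h1a, the gene of H1.1, a subtype found in germ cells, measured 0.902, 0.583 and 0.562 FPKM across controls and 0.357, 0.700 and 1.04 FPKM in the knockout-labelled libraries, a spread wider than any difference of the means. Hist1h1b, the H1.5 gene, was not tested, at 0.245, 0.363 and 0.210 FPKM across controls and 0.0712, 0 and 0.414 FPKM in the others, on 18 reads in all. Hist1h1t had the second highest mean FPKM of these 6 genes.

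H2A genes other than the testis form were low. Hist3h2a read 2.63, 2.19 and 1.84 FPKM across controls and 1.85, 1.21 and 2.80 FPKM in the knockout-labelled libraries. It overlaps Trim17 on the same strand, and 32.1% of its sequence words are shared with that gene, so its reads could not be assigned with certainty. Hist2h2ac had the lowest difference of the 19 genes, with 2.69, 1.56 and 2.002 FPKM across controls and 0.915, 0.887 and 2.37 FPKM in the others (−0.41, SE 0.26, limma, adjusted p = 0.868). Labelled knockout 3 was as high as the controls while the other 2 were below all of them. Hist1h2ao, at 0.887, 1.46 and 0.651 against 0.661, 0.240 and 1.39 FPKM, shared 93.8% of its words with Hist1h2ap and its level is uncertain.

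The H2B gene Hist1h2bp was the most abundant of all 67. It measured 34.9, 29.8 and 28.5 FPKM across controls and 32.1, 27.4 and 23.97 FPKM in the knockout-labelled libraries, with overlapping groups (31.03 ± 3.39 and 27.8 ± 4.09 FPKM, difference −0.16, SE 0.13). Its annotation has a short transcript of 469 bases that ends with the histone hairpin and a transcript of 621 bases with 2 exons that does not carry it, and a gene-level value cannot tell these apart. Hist2h2be, an H2B gene with a long annotated 3′ end, measured 9.61, 12.2 and 12.5 FPKM across controls and 8.94, 9.24 and 12.1 FPKM in the others (−0.17, SE 0.15). It took the most reads of any histone gene, 3113, over a gene length of 2620 bases. Hist1h2bc followed at 4.68, 3.60 and 6.35 against 3.16, 5.14 and 4.44 FPKM. Hist1h2ba, at a mean of 4.83 FPKM, thus was the third highest of the 18 H2B genes, and its values did not separate from those of Hist1h2bc.

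Of H3 genes, Hist1h3a measured 6.26, 8.9997 and 4.97 FPKM across controls and 4.85, 6.70 and 8.36 FPKM in the knockout-labelled libraries, and the group means nearly coincided (−0.01, SE 0.23). Hist2h3c2 read 1.43, 1.32 and 1.68 FPKM against 1.56, 1.58 and 2.31 FPKM (0.18, SE 0.14). Hist1h3i was above 0 in 3 libraries, on 11 reads, and was not tested. Among H4 genes Hist1h4a led, with 28.2, 19.1 and 16.9 FPKM across controls and 23.4, 20.6 and 21.03 FPKM in the others (0.05, SE 0.18). Control 1 was its highest library, and the SD was 5.98 FPKM among controls and 1.52 FPKM among the others.

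Hist1h4h showed the highest difference of the 19, at 2.20, 0.574 and 3.10 FPKM across controls and 2.92, 2.09 and 4.15 FPKM in the knockout-labelled libraries. Its standard error was 0.36 beside a difference of 0.53 (95% interval −0.32 to 1.38, limma, adjusted p = 0.868), and control 2 was the low library. Without control 2 the difference was 0.13, below that of Hist1h2aa in the same setting (0.34), and without labelled knockout 3 it was 0.34. Hist1h4c, at 1.04, 1.19 and 1.52 against 1.35, 0.703 and 1.94 FPKM, differed by 0.02 with an SE of 0.21. The other tested genes, Hist1h2bj, Hist1h4i and Hist2h2ab, averaged 1.23, 0.711 and 0.634 FPKM, and their groups overlapped.

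**Figure D3:**
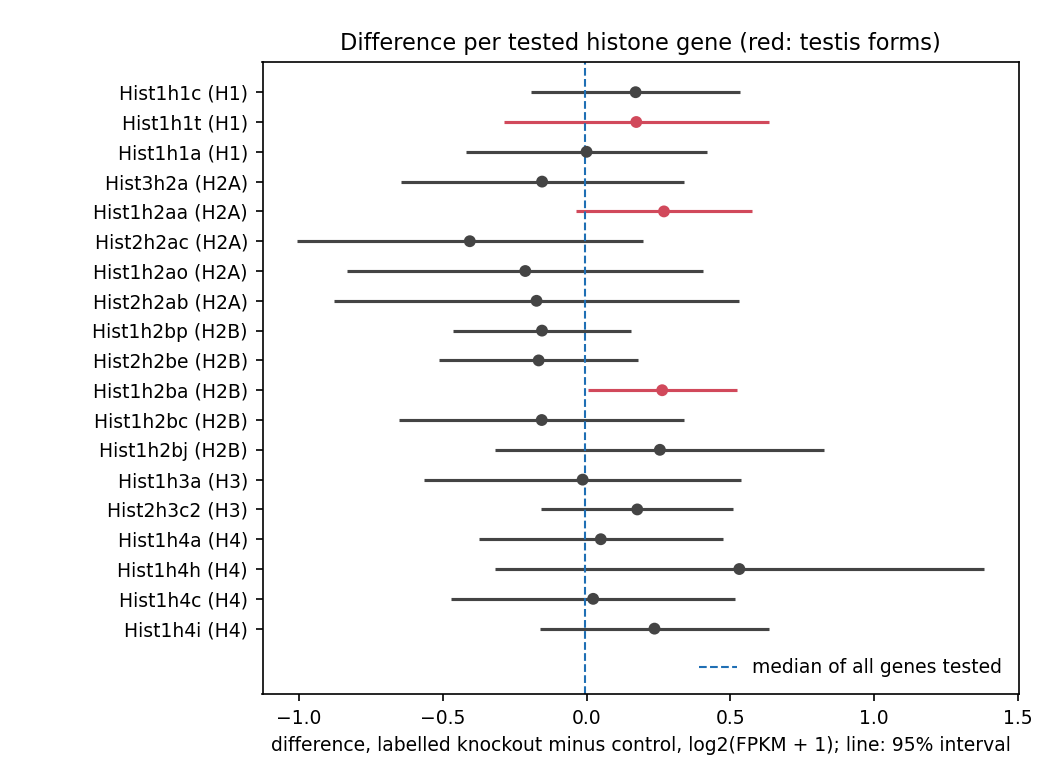
Points give the difference of each tested histone gene, labelled knockout minus control on the log2(FPKM + 1) scale, with its limma 95% interval as a line, testis forms in red, and a dashed line at the median of all genes tested. The intervals of 18 genes include 0, and that of Hist1h2ba starts at 0.004.

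Histone genes resemble each other so closely that reads can be hard to assign. For each gene the share of its 31-base words that also occur in transcripts of other genes was counted. At least 50% of the words were shared in 42 of the 67 genes, of which 8 were tested and 8 had no read at all. In the 25 genes with less sharing, 11 were tested and 0 were at 0. The medians of the mean level were 0.0856 and 0.315 FPKM. The 8 genes at 0 shared 74.4% to 100% of their words, with a median of 100%. Among them, Hist2h2aa1, Hist2h2aa2, Hist2h2bb, Hist2h3b and Hist2h3c1, had 100% of their words within a single annotated predicted gene each, so a 0 there does not show that the gene was silent. How the authors treated reads with several matches is not stated in the labels or the table.

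By class the median shared percent was 3.82 for H1, 47.9 for H4, 57.4 for H2B, 63.1 for H3 and 77.1 for H2A. Hist1h1t shared 0% of its words, Hist1h2aa 28.3%, nearly all with the predicted gene Gm44344 that overlaps it on the other strand, and Hist1h2ba 44.1%. The shared words of Hist1h2ba all occur in Hist1h2bq, and some of them also in others of its 20 partner genes, so reads from those stretches could not be assigned with certainty. Hist2h2be shared 2.82%, Hist1h4a 47.9%, Hist1h2bp 50.6%, Hist1h3a 58.9% and Hist2h3c2 64.2%. Restricting to the 11 tested genes under 50% gave 7 higher and 4 lower values, a median difference of 0.05, and 0 genes passing.

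**Figure D4:**
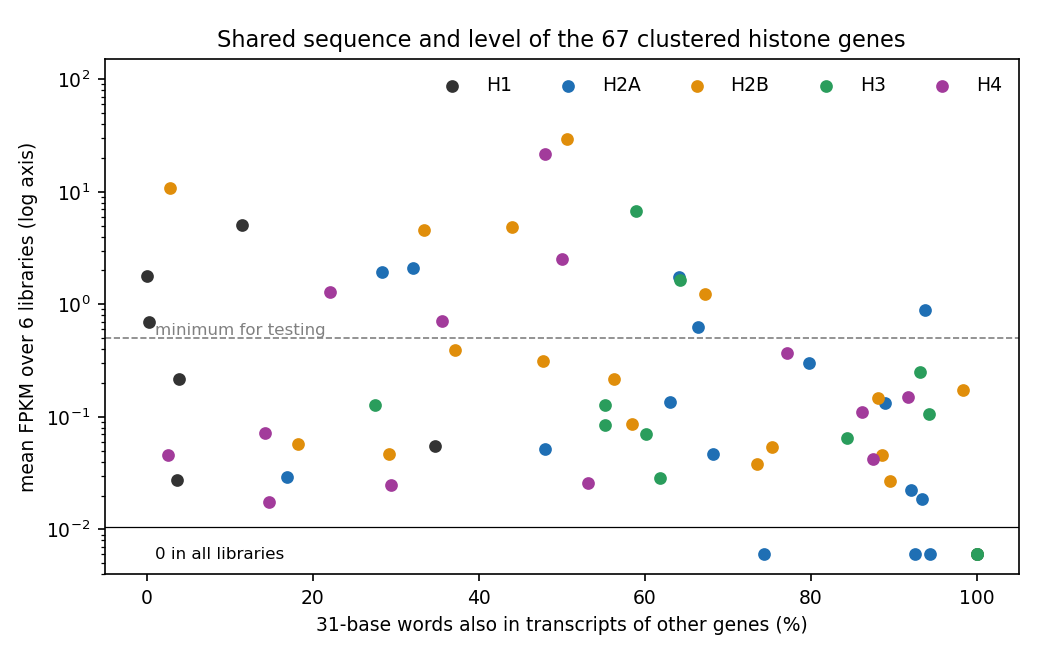
Each point is 1 of the 67 histone genes, by the percent of its 31-base words found in transcripts of other genes and its mean FPKM over the 6 libraries (log axis, with genes at 0 drawn in a strip below), coloured by class. The 8 genes at 0 all lie at 74.4% or more, some on top of each other at 100%, and the dashed line marks 0.5 FPKM.

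The annotated 3′ ends were read for the hairpin and for a poly(A) signal. They are gene models and do not show how the mRNAs ended in these libraries. The hairpin has a stem of 6 base pairs and a loop of 4 bases and is bound by SLBP, the stem-loop binding protein. A script searched the 3′ untranslated region of each coding transcript for it, and 44 of the 67 genes carried a match with T at the first 2 loop positions. When only the first loop base had to be T, an allowance made after the data were seen, Hist1h4a and Hist1h3g joined, for 46. In 13 genes, among them Hist1h2ba and Hist1h2aa, the models have no 3′ untranslated region and nothing could be searched. The hairpins of the abundant or testis-expressed genes are given here, from GENCODE M21 transcripts, with the 16 hairpin bases in capitals:
Hist1h1t: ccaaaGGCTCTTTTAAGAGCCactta
Hist1h1c: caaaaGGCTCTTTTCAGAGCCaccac
Hist1h2bp: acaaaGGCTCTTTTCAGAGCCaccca
Hist2h2ac: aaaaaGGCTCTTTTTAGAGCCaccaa
Hist1h3a: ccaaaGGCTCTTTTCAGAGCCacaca
Hist1h4h: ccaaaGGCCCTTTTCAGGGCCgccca
Hist1h4a: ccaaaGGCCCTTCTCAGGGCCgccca
The form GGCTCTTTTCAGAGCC was the commonest, in 26 genes of the H1, H2A, H2B and H3 classes, and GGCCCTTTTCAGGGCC was found in 7 genes, all H4. Hist1h1t carries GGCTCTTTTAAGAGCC, which 6 genes share, at chr13:23696525-23696540, and its transcript runs 185 bases past it.

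In the 44 genes with T at the first 2 loop positions, transcripts extended 3 to 4884 bases beyond the hairpin, with a median of 112.5 bases, so many annotated models do not stop at it. A poly(A) signal, AATAAA or ATTAAA, stood in the last 50 bases of a transcript of 17 of the 54 genes with a 3′ untranslated region, 31.5%. Of all protein-coding transcripts, with or without such a region in the model, 50.2% had it. These shares are unlike measures, since the first counts genes and the second counts single transcripts. Those 17 genes held 80.1% of the histone reads. With the looser hairpin search (46 genes), hairpin and signal were both annotated, on the same or on different transcripts, in 14 genes, 7 of them tested, with a median level of 0.552 FPKM and 50.4% of the histone reads. The 32 genes with the hairpin and no such signal had a median of 0.0776 FPKM and 10.4% of the reads, and 6 were tested. Signal without hairpin was found in 3 genes, Hist2h2be, Hist1h2bq and Hist1h2br, which held 29.7% of the reads, nearly all from Hist2h2be. With T required at the first 2 loop positions Hist1h4a moves to this class, which then has 4 genes and 41.6% of the reads, and the class with both has 13 genes and 38.5%. The medians were then 0.393 FPKM with both, 0.0847 FPKM for the 31 genes with the hairpin only and 5.46 FPKM with the signal only. Under the looser search, Hist1h1t, Hist1h1c, Hist1h2bp, Hist1h4a, Hist1h4h and Hist3h2a were among those with both. Per the labels, libraries were made with a SMARTER mRNA kit. The part that the library method had in these levels was not tested.

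**Figure D5:**
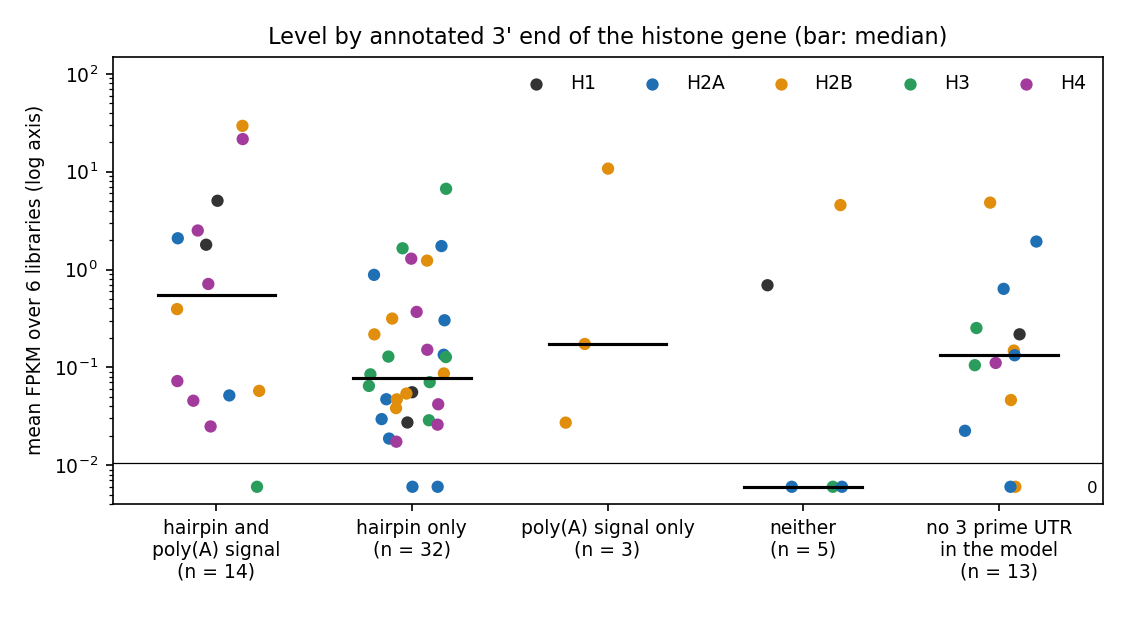
Points are the 67 histone genes, grouped by what their annotated 3′ end holds and under the looser hairpin search, and coloured by class, with mean FPKM over the 6 libraries on a log axis, genes at 0 in a strip below and a bar at each median. The 14 genes with both hairpin and poly(A) signal have a median of 0.552 FPKM, the 32 with the hairpin only 0.0776 FPKM. With T required at the first 2 loop positions these medians are 0.393 FPKM (13 genes) and 0.0847 FPKM (31 genes).

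Genes that act on histones were counted from lists of the pathway. Of 20 tested genes of histone mRNA processing, 0 passed the adjusted test, with 8 values higher and 12 lower in the knockout-labelled libraries and a median difference of −0.01. Slbp itself measured 13.9, 14.2 and 14.99 FPKM across controls and 13.96, 11.8 and 14.2 FPKM in the others. Npat, the coactivator of histone gene transcription, was 6.32, 7.32 and 7.51 FPKM across controls and 6.22, 6.09 and 5.92 FPKM in the others, so all 3 of the latter were below the controls, without passing (limma, adjusted p = 0.868). In this list 1 gene, Npat, lay wholly below the controls, against 4.41% of all genes, and 3 genes, Sympk, Srrt and Zfp473, lay wholly above them, against 4.15%. Slbp, Npat, Srrt and Zfp473 were singled out after their values were seen. The list's highest genes were Ncbp1 at 113.6 ± 3.86 and 113.1 ± 7.98 FPKM, Upf1 and Sympk. Among 35 histone chaperones and removal factors 0 passed, with 19 higher and 16 lower values and a median of 0.02, and Phf7, Nasp and Psme4 were the highest. In the S phase list, 0 of 15 passed, with 8 higher and 7 lower values, and Pcna, the replication clamp, stood at 44.9 ± 2.74 and 45.7 ± 3.39 FPKM.

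Of 40 listed histone variants coded outside the clusters, 10 had a higher mean FPKM than Hist1h2bp, the most abundant clustered gene, 12 did not reach the minimum for testing and 5 of those were at 0. Most clustered histone mRNAs lack a poly(A) tail, and the part of the library method in this ranking was not tested. Hils1, a linker histone of spermatids, measured 447.6 ± 37.6 FPKM across controls and 386.9 ± 42.2 FPKM in the knockout-labelled libraries, and H1fnt, another, 369.0 ± 56.1 and 320.7 ± 76.9 FPKM. Of 28 tested variants 0 passed, with 12 higher and 16 lower values and a median of −0.09. All 5 transition protein and protamine genes had lower values in the knockout-labelled libraries, median −0.43, and 0 passed. Of them, Prm1, Prm2, Tnp1 and Tnp2 are also among the elongating spermatid markers below, so the lists are not separate observations. Prm1 stood at 4667, 3370 and 2469 FPKM across controls and 3832, 1804 and 1862 FPKM in the others, so labelled knockout 1 lay among the controls.

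Cell type markers were set beside the testis-form values. Elongating spermatid markers had lower values in the knockout-labelled libraries for 11 of 11 tested, median −0.42, and round spermatid markers for 9 of 10, median −0.13. Of all 19168 genes tested, 9853 had lower values. Pachytene spermatocyte markers were lower for 9 of 12, median −0.13. Higher values were seen for 6 of 10 spermatogonial markers, median 0.12, 9 of 10 Sertoli cell, median 0.24, 7 of 7 macrophage, median 0.27, and 3 of 3 myoid markers, median 0.30. Leydig cell markers were lower for 6 of 7, median −0.20, blood markers for 3 of 3, median −0.17, and the only tested epididymal marker was lower by 0.22, all as differences on the log2(FPKM + 1) scale. The mean centred Leydig level was 0.03, 0.16 and 0.09 in controls and 0.25, 0.12 and −0.64 in the others, so only labelled knockout 3 was below the controls. Of the blood markers, Hbb-bs had the higher mean FPKM in the knockout-labelled libraries, 6.19 ± 9.29 against 5.38 ± 5.35, and its sign depends on the scale. In every one of these lists 0 genes passed. In bulk tissue fewer cells of a type and less RNA per cell cannot be told apart.

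Library values of the elongating spermatid and pachytene lists were set beside those of the testis forms, which rest on 10 to 43 reads a library. The mean centred level of the elongating spermatid markers was 0.48, 0.29 and −0.14 in controls and 0.35, −0.31 and −0.67 in the knockout-labelled libraries, on the log2(FPKM + 1) scale, and that of the pachytene markers was 0.05, 0.03 and 0.09 against 0.07, −0.16 and −0.09. Labelled knockout 1 sat with the controls in both lists. Its Hist1h2ba and Hist1h2aa values were above all controls, on 39 and 15 reads. Its Hist1h1t value, 2.03 FPKM, lay among the controls, below control 2 at 2.19 FPKM. The part of cell composition in the testis-form values was not tested.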

How the data were processed

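RNA sequencing of 6 testis libraries was used, grouped by title and genotype label. Gene-level FPKM in 1 table were deposited by the authors. Per the submitters' processing notes the builds were GRCm38 and mm10. For the aligner, counter, annotation release, strandedness and filters, the sources used here give nothing. FPKM times gene length gave whole reads for 100% of values, within 0.001 reads. All members have identical coordinates in GENCODE M21.

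Tests used limma 3.58.1 (R 4.3.3, trend, group only) on log2(FPKM + 1) for every gene whose mean reached 0.5 FPKM, with Benjamini-Hochberg adjustment over all genes tested. The procedure was tested on simulated data. A difference on this scale understates change in low genes. The members and gene lists were chosen with earlier results of these data known. Named genes were the testis forms, the 3 other highest members of each class, the 3 of smallest unadjusted p in each direction, those with groups that did not overlap, and the 3 highest of each list. Other genes are named where a count or the overlap of models concerns them. Sequence words, hairpins and coding alignments (Python 3.11.15, Biopython 1.88) came from GENCODE M21 transcripts, and promoters from RefSeq. Identity was computed on coding bases. Alternatives covered pseudocounts, filters, scalings, library weights, a replicate block, limma-voom and each library left out.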

Additional observations from a re-analysis of the deposited data

How the results depend on the processing

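Across the alternatives run, 0 histone genes passed an adjusted p of 0.05. Over all genes the count stayed 0, except that limma-voom on the recovered reads called 1 gene (smallest adjusted p = 0.0195). With the replicate number as a block 0 genes passed (smallest adjusted p = 0.262, among histone genes 0.662), and the histone median stayed at 0.02. At an unadjusted limma p under 0.05 stood 1411 genes with the block and 741 without it. The count also rose with library weights, to 2176, and without labelled knockout 1, to 3491, so a rise is not particular to the block. Deviations of same-numbered libraries correlated at 0.29, 0.04 and 0.20, and those of different-numbered libraries at −0.32 to 0.17. Each control correlated most with the library of its own number, but labelled knockout 2 did so with control 3 (0.17). For control 2 the lead was small, 0.04 against 0.03 with labelled knockout 1. With 3 libraries a group, these values do not settle whether libraries were paired, and the main test left the numbers out. The histone median ranged from −0.05 to 0.15 with a library left out, and so changed sign. Of single-gene differences, 227 kept their direction and 20 did not. Hist1h4c turned to −0.00612 at a pseudocount of 0.01 and to −0.0186 with library weights. Hist1h1a turned to 0.016 with quantile normalization and 0.10 with library weights, and Hist1h2bc to 0.00591 with library weights. Leaving out libraries gave ranges including 0 for Hist1h1a (−0.14 to 0.15), Hist1h4c (−0.16 to 0.23), Hist1h3a (−0.18 to 0.19), Hist1h4a (−0.10 to 0.26), Hist1h1t (−0.0474 to 0.32), Hist1h2bc (−0.32 to 0.0186), Hist3h2a (−0.35 to 0.0364) and Hist1h2ao (−0.46 to 0.0146). The cause was not tested.

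The share of the testis forms was higher by 1.90 percentage points in the knockout-labelled libraries, and by 1.51 to 2.55 points with a library left out. Alternatives chosen after seeing the data gave 1.10 points by reads, 2.32 points without Hist1h2bp and 3.44 points without Hist1h2bp and Hist1h4a. They gave 2.97 points among genes under 50% shared, and 3.39 points for Hist1h2aa and Hist1h2ba within H2A and H2B genes. Depth limits the testis forms, which rest on 10 to 43 reads a library.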

Other observations

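The table also holds 3 entries with clustered histone symbols that are annotated as pseudogenes, of which 2 had reads. Hist3h2bb-ps, a processed pseudogene of an H2B at chr11:58954048-58954512 (GRCm38), measured 3.14, 3.83 and 3.02 FPKM across controls and 4.55, 7.32 and 4.85 FPKM in the knockout-labelled libraries. Its groups did not overlap, and the difference was 0.58 on the log2(FPKM + 1) scale (SE 0.17), with a limma p of 0.0118 unadjusted and 0.868 adjusted. Of all genes tested, 4.15% lay wholly higher in the knockout-labelled libraries and 3.87% had an unadjusted p under 0.05. This pseudogene holds 32.9% of the 31-base words of Hist3h2ba, so reads from those stretches could not be assigned with certainty. Hist1h2al, a processed pseudogene of an H2A, stood at 1.42 ± 0.403 and 1.84 ± 0.295 FPKM (SD, n = 3 each), with overlapping groups, and Hist1h2aj was listed at 0 in all 6 libraries.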
